A study of Mus musculus with 6 samples.

Results

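The reads described here are 5′ ends of polyadenylated mouse RNA whose tag closed on a run of A. A tag is the roughly 20-base sequence read inward from an RNA 5′ end. An end was kept when bases 15 to 20 of its tag were all A, so at least 6 A closed the first 20 bases. Tags whose sequence was listed at 2 locations were left out, and sequences on the minus strand were turned to read 5′ to 3′. The rule kept 1753 of 449338 distinct ends (0.390%) and 8588 of 839877 unique tags (1.02%). It used only the letters of the tag, not its level. These are called A-run ends and A-run tags below, and the 445998 ends with at least 20 bases and no such run serve as the comparison.

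The libraries came from whole brain, lung, liver, kidney, ovary and spleen of adult BALB-c mice, with 1 library per tissue and no treatment. They were made by PARE, parallel analysis of RNA ends, to survey polyadenylated RNA that carries a 5′ monophosphate. Polyadenylated RNA was selected on oligo(dT) beads, an RNA adaptor was ligated to its 5′ monophosphates, and complementary DNA was primed with oligo(dT) that ends in a base other than T. The enzyme MmeI then cut a short tag, so only sequence close to the RNA's 5′ end was read. Depth ran from 29213 unique tags in ovary, 33382 in brain and 42939 in spleen to 78952 in liver, 162270 in kidney and 493121 in lung. With 1 library per tissue there is no replicate spread, no test between tissues was possible, and every interval given is an exact 95% interval that covers counting error only. PCR copies of a molecule cannot be told from separate molecules. As a check of 1 label, the promoter window of Kap, a gene known for its expression in kidney, held 1006 tags in kidney (6200 CPM, counts per 1000000 unique tags) and between 0 and 274 CPM in the other 5 libraries.

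Most messenger RNAs end in a poly(A) tail added after cleavage downstream of a signal hexamer, AATAAA in its commonest DNA spelling and ATTAAA as its main variant. Tails are shortened by deadenylases before many messages are decapped, and decapped RNA carries the 5′ monophosphate that PARE captures and that the exonuclease XRN1 attacks. Runs of A also occur within genomes, for example at the ends of retrotransposed copies of processed RNAs and inside gene bodies. Bowtie placed these tags on the mm9 build, and a genome of that build was not used here. The deposited letters are those of the reads, so the letters of the genome beneath a run were not read directly.

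Of the 12 ends with the most A-run tags 11 are shown, because these ends hold most of the A-run tags; the end at chr15:21951705 is named only. Each line gives the place in mm9, the strand and the first 20 bases, with the closing A run in capitals.
chr19:31161459-31161478 plus: aatttcggttgggAAAAAAA
chr19:31161460-31161479 plus: atttcggttgggAAAAAAAA
chr12:76731909-76731928 minus: ttatgtatcttgAAAAAAAA
chr12:50691104-50691123 minus: tttaaaacctgAAAAAAAAA
chr1:95597183-95597202 plus: aaagaatgtaaactAAAAAA
chr8:25784270-25784289 minus: catttcggttgggAAAAAAA
chr19:31161461-31161480 plus: tttcggttgggAAAAAAAAA
chr10:102620148-102620167 plus: tgattgtaaactAAAAAAAA
chr13:112623030-112623049 minus: tatttcactgcAAAAAAAAA
chr2:13950756-13950775 minus: acacaaaaaaaaagAAAAAA
chr16:23050990-23051009 plus: ttgaacaaagacAAAAAAAA
The 3 places on chromosome 19 are successive bases of 1 site, and the chromosome 8 end carries almost the same letters before its run.

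A-run tags made up a larger share of the spleen and brain libraries than of the other 4. They were 2419 tags in spleen (5.63%, 5.42 to 5.86), 1241 in brain (3.72%, 3.52 to 3.93) and 4078 in lung (0.827%, 0.802 to 0.853). Liver held 512 (0.648%, 0.594 to 0.707), ovary 91 (0.312%, 0.251 to 0.382) and kidney 247 (0.152%, 0.134 to 0.172). The spleen share was 1.52 times that of brain (1.41 to 1.62), and brain was 4.50 times lung (4.22 to 4.79). Each neighbour in this order of tag shares differed by more than counting error, but liver and ovary changed places without the end with most tags (0.0993% and 0.144%).

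Counted as distinct ends, spleen stood far from the other libraries. Spleen listed 1297 A-run ends, 5.08% of its ends (4.82 to 5.36), and 74.0% of all A-run ends. Brain had 86 (0.307%, 0.246 to 0.379), lung 437 (0.161%, 0.147 to 0.177), ovary 34 (0.143%, 0.0993 to 0.200), liver 43 (0.0942%, 0.0682 to 0.127) and kidney 28 (0.0259%, 0.0172 to 0.0374). The spleen share of ends was 16.5 times that of brain (13.3 to 20.8). Lung and ovary could not be told apart by ends (ratio 1.13, 0.793 to 1.65), nor could ovary and liver (1.52, 0.941 to 2.44). The spleen library is A-rich as a whole: A made up 41.5% of bases 1 to 11 of its other ends, against 27.5% over the other ends of all libraries. Runs of 6 A were also more frequent in spleen away from the close of the tag. Over runs starting at bases 1 to 8, the median share of ends was 0.872% in spleen, 0.0701% in brain and 0.0802% without spleen. The spleen excess is thus not particular to the closing position. The part of the composition in the spleen share was not tested.

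**Figure D1:**
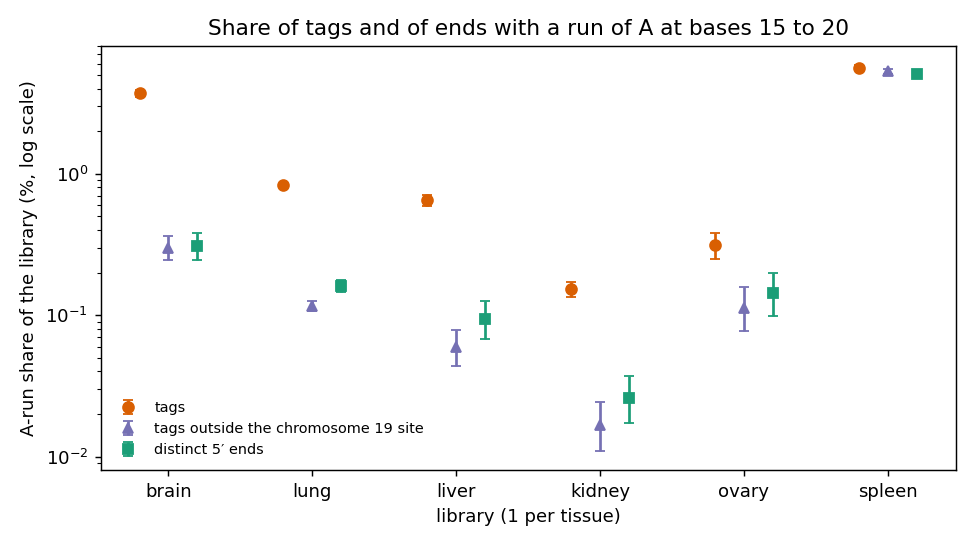
Share of each library that closes on a run of A, on a log axis, for tags (circles), tags outside the strongest chromosome 19 site (triangles) and distinct ends (squares). Bars are exact 95% counting intervals. Brain is at 3.72% of tags but 0.300% outside that site, while spleen is above 5% by all 3 measures.

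The gap between tags and ends in brain came from 1 site. The end at chr19:31161459 held 4807 A-run tags, 56.0% of the total over all libraries. Lung gave 3064 of these tags, brain 949, liver 434, kidney 192, spleen 119 and ovary 49. In CPM these are 28428 in brain, 6213 in lung, 5497 in liver, 2771 in spleen, 1677 in ovary and 1183 in kidney. The end was therefore listed in every library, and its brain level was 4.58 times its lung level (4.25 to 4.92).

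The next base downstream was also an A-run end, with 692 tags, of which lung gave 413, brain 192, liver 31, kidney 25, spleen 22 and ovary 9. A further base downstream, 27 tags were listed, 23 of them in lung. Together 4 ends shared the start of this run and held 5529 tags. The summed site ran from 34180 CPM in brain through 7102 in lung, 5890 in liver, 3330 in spleen and 1985 in ovary to 1356 in kidney. Each step in that order exceeded counting error, the smallest being lung over liver at 1.21 times (1.09 to 1.33).

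**Figure D2:**
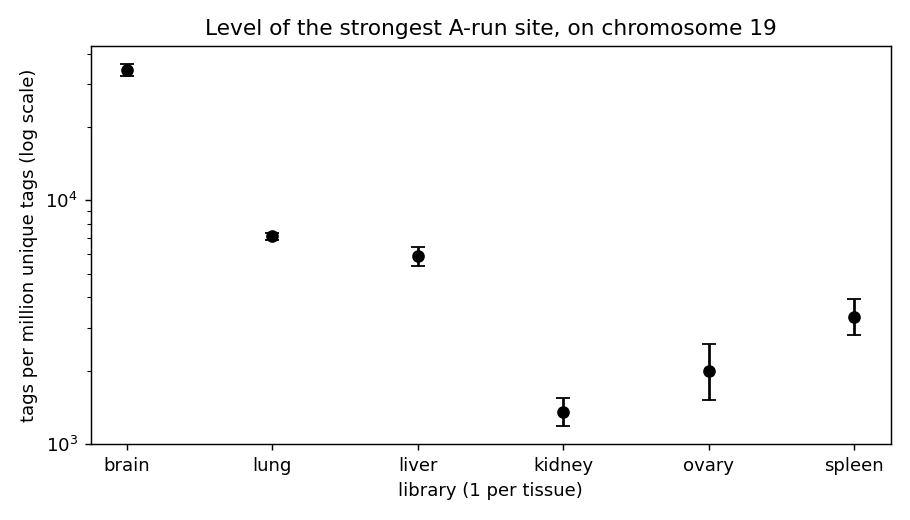
Level of the strongest A-run site, the 4 ends on chromosome 19 that share 1 run start, in CPM on a log axis. Points are the 6 libraries and bars exact 95% counting intervals; brain is at 34180 and kidney at 1356.

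This site made up 91.9% of A-run tags in brain, 90.8% in liver, 89.1% in kidney, 85.9% in lung and 63.7% in ovary, but 5.91% in spleen. Outside it, A-run tags were 2276 in spleen (5.30% of the library), 100 in brain (0.300%), 576 in lung (0.117%), 33 in ovary (0.113%), 47 in liver (0.0595%) and 27 in kidney (0.0166%). Spleen was then 17.7 times brain (14.5 to 21.8), while lung and ovary were within counting error of each other (1.03, 0.728 to 1.52). The order of the libraries by tags outside the site was thus the order by distinct ends.

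At the strongest end 4740 tags carried the same 20 bases. A further 25 sequences, 129 tags, each differed from it at 1 base. Elsewhere in the genome 4 A-run ends had first 13 bases within 2 mismatches of it, with 45 tags in all. Each differed at 1 base, and they are shown with the strongest end so that their letters can be compared.
chr19:31161459 plus: aatttcggttgggAAAAAAA
chr8:25784289 minus: catttcggttgggAAAAAAA
chr2:52418623 plus: aatttctgttgggAAAAAAA
chr16:38496568 plus: aattttggttgggAAAAAAA
chr12:90538110 minus: agtttcggttgggAAAAAAA
The chromosome 8 end had 27 tags (4 in brain, 19 in lung, 2 in kidney and 2 in spleen), and chromosome 2 had 11 (2 in brain, 8 in lung and 1 in spleen). Chromosome 16 had 4 and chromosome 12 had 3, all in lung. These 4 sequences are as close to the strongest one as the 25 listed at its own place. Whether their tags come from separate places was not tested.

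The next ends by tags were nearly all spleen ends. At chr12:76731928 on the minus strand 97 tags came from spleen and 2 from liver, with none in the other 4 libraries. The spleen level of 2259 CPM was 89.2 times that of liver (24.0 to 747). At chr12:50691123 minus, 78 tags came from spleen and 4 from lung, 224 times apart in CPM (84.0 to 842). At chr1:95597183 all 53 tags, at chr10:102620148 all 25, and at chr2:13950775 and chr15:21951705 all 22 tags each were from spleen. The spleen level at these 4 ends was 1234, 582, 512 and 512 CPM. At chr13:112623049 spleen gave 22 tags and lung 2, and at chr16:23050990 spleen gave 15 and lung 2.

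Besides the 2 top chromosome 19 ends, only 1 A-run end was listed in 5 libraries. It is shown because it is the most widely shared end outside that site.
chr13:95394758-95394777 minus: attgagtagcatttAAAAAA
Of its 14 tags lung gave 7, brain 4, and liver, kidney and spleen 1 each, with 0 in ovary. The brain level of 120 CPM was above that of spleen, 23.3, but not beyond counting error (5.15 times, 0.509 to 253).

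Ends found in several libraries were slightly less common among A-run ends than among all ends, and more clearly so without lung. Without spleen the difference was within counting error. Of the A-run ends 139 (7.93%, 6.71 to 9.29) were listed in 2 or more libraries, where the background over all 449338 ends was 9.30%. By number of libraries, 117 were in 2, 16 in 3, 3 in 4, 1 in 5 and 2 in all 6. Spleen alone held 1176, 67.1% of all A-run ends and 90.7% of its own. The share of a library's A-run ends found in no other was 57.1% in kidney, 65.1% in liver, 68.6% in brain, 70.6% in ovary and 71.2% in lung. Over all ends, 432864 of 449338 remained without spleen, which listed 25523 ends, and 215030 remained without lung, which listed 270960. By these counts, A-run ends were found in no other library more often than all ends in spleen, and less often in lung. For the remaining libraries this share over all ends was not counted. Sharing depends on depth, and lung is the deepest library. Without lung 35 of 1442 A-run ends (2.43%) were in 2 or more, against 6.10% of all ends. Without spleen 39 of 577 A-run ends were (6.76%, 4.85 to 9.12), against 8.33% of all ends.

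A library was said to lead an end of at least 5 tags when its CPM exceeded the next highest CPM beyond counting error. Where no other library had a tag, the comparison was with the first library by name, not with the shallowest. Over all 14337 such ends 19.3% were led by some library. Of the 95 A-run ends with at least 5 tags 60 were led, 57 of them (60.0%) by spleen, where the background for spleen was 5.80%. Brain led 3 (background 0.321%). Lung, liver, kidney and ovary led 0, with backgrounds of 1.90%, 6.13%, 4.87% and 0.307%.

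Most A-run ends were seen once. Of the 1753, 1374 (78.4%) had 1 tag, 183 had 2, 168 had 3 to 9 and 28 had 10 or more, with a median of 1. Among other ends 81.5% had 1 tag. In spleen 1016 of 1297 A-run ends (78.3%) had 1 tag, and the highest held 119. The A-run signal of spleen was thus spread over many thinly read places, while that of the other 5 libraries was concentrated at 1.

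Runs of A were more frequent at the close of the tag than inside it, in most libraries. Over all libraries 6 A in a row started at base 15 in 1753 ends, against a median of 509.5 ends over the 14 earlier starts (3.44 times, 3.11 to 3.80). The rise began at base 12: 211 ends had 6 A from base 11, 689 from base 12, 1076 from base 13 and 1431 from base 14. These counts are nested, since a run of 9 closing at base 20 is counted at starts 12 to 15. No listed A run exceeds 9 bases, so a run that closes at base 20 cannot start before base 12. Tags with a longer run inside are missing, while a run that goes on past the last base read can still be listed. Close and inside are thus not compared on equal terms, and the part of this ceiling in the ratios was not tested. By library the ratio was 5.87 in spleen (5.08 to 6.80), 4.30 in brain (2.62 to 7.39), 2.13 in ovary (1.14 to 4.12) and 2.06 in lung (1.75 to 2.44). In liver (0.896, 0.580 to 1.38) and kidney (0.667, 0.398 to 1.10) the closing position was not above the others. Against the median of starts 1 to 8 alone, which share no base with the closing window, it was lower in kidney beyond counting error (0.475, 0.291 to 0.756) and 0.782 in liver (0.512 to 1.19). Without spleen the ratio was 1.80 (1.57 to 2.07).

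**Figure D3:**
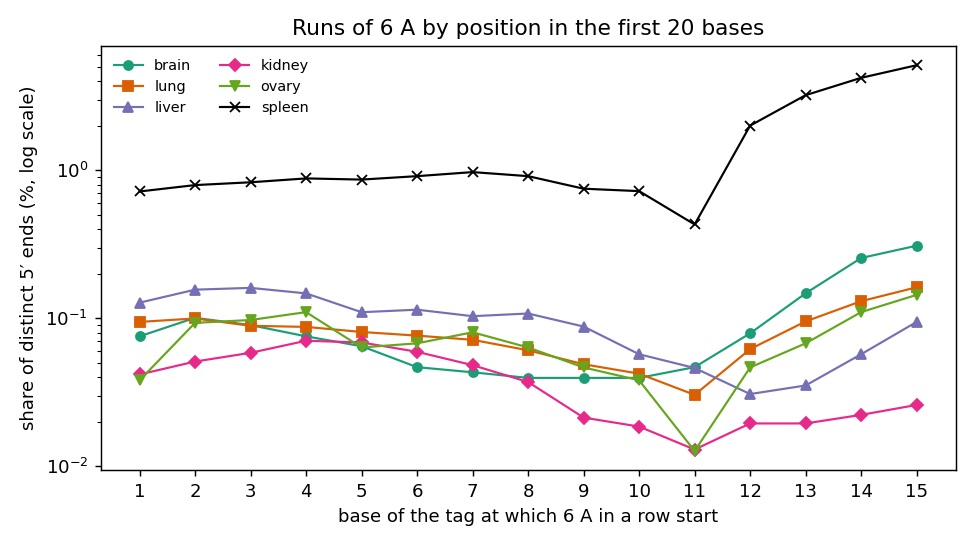
Share of each library's distinct ends that hold 6 A in a row, by the tag base at which the 6 A start, on a log axis. Base 15 is the closing position; spleen lies above the other libraries at every start and rises from base 12, and liver and kidney end no higher than at their early bases.

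The closing base run was A far more often than any other base. At bases 15 to 20, 1753 ends had all A, 168 all G, 141 all T and 91 all C. In spleen the counts were 1297 for A, 19 for T, 3 for C and 1 for G. Lung had 437 for A, 88 for T, 75 for G and 63 for C. Kidney went the other way, with 76 ends closing on G, 28 on A, 20 on C and 7 on T. Without spleen 577 ends closed on A.

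No run of A in the deposited tags exceeded 9 bases. Of all deposited sequences 1262 had a longest A run of 9 and 0 had one of 10 or more, whereas T runs of 10 or more occurred in 46, G runs in 9 and C runs in 3. The longest run was 11 for each of T, G and C. Runs of A of 10 or more were therefore not measured in these files, and the lengths given next stop at 9.

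By distinct ends the 4 lengths were about equally common: 421 ends had a run of 6, 407 of 7, 429 of 8 and 496 of 9. By tags, runs of 7 dominated with 5487 of 8588, most of them at the strongest chromosome 19 end, beside 722 for runs of 6, 1520 for 8 and 859 for 9. Just outside the rule, 559 ends and 914 tags closed on exactly 5 A. Runs of 9 made up 31.2% of A-run ends in spleen (405 of 1297), 32.1% in kidney (9 of 28) and 23.8% in lung (104 of 437). Brain had 1 such end of 86 and liver 0 of 43, which allows a share of up to 6.98% (3 ends). Spleen's share of the ends rose with length, from 278 of 421 at runs of 6 through 69.5% and 77.2% to 81.7% at runs of 9.

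**Figure D4:**
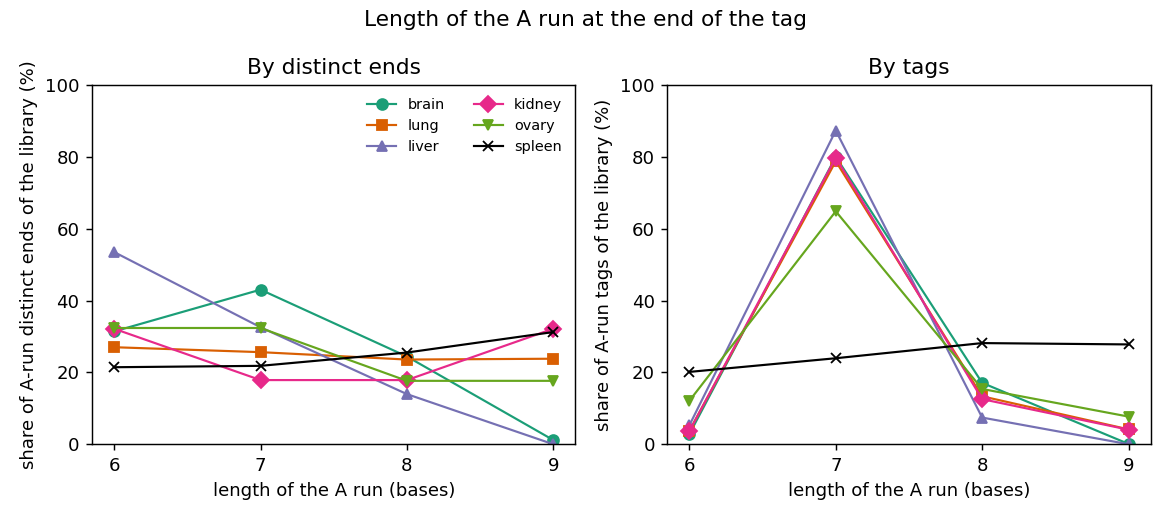
Length of the closing A run in each library, as a share of its A-run ends (left) and of its A-run tags (right), in percent. By tags the 5 libraries other than spleen peak at 7 bases, the run at the strongest site, while spleen is spread over 6 to 9.

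The longest runs with at least 3 tags, 9 A each, are shown for their letters before the run. The first had 4 lung and 4 spleen tags and the other 3 had 3 spleen tags each.
chr2:39965209-39965228 minus: ggggtttggagAAAAAAAAA
chr1:104799510-104799529 plus: atttgaaactgAAAAAAAAA
chr1:189397310-189397329 plus: atgacataaagAAAAAAAAA
chr1:193897628-193897647 minus: ttgtaagacagAAAAAAAAA
Each of these 4 has G as the last base before the run. Over all A-run ends that base was G in 800 (45.6%), T in 571 (32.6%) and C in 382 (21.8%). The last base other than A among the first 14 of other ends was G in 35.4%, T in 34.3% and C in 30.4%. In spleen the A-run ends had G in 46.3%, against 30.8% of its other ends.

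Where a tag went on past base 20, the run mostly went on too. Base 21 was read in 481 A-run tags and was A in 436 (90.6%), against 13.2% of other tags. This base was not counted by site, and only 218 of the 476 A-run tags of 21 bases lay outside the strongest site. Since no listed A run exceeds 9 bases, a run of 9 could not go on at base 21. A-run tags of 21 bases were scarce: 476 of 8583 tags of 20 or 21 bases (5.55%, 5.07 to 6.05), where 38.9% of other tags had 21. The share lay between 2.20% in ovary and 8.91% in kidney, and between 31.9% and 40.2% among other tags of each library. Outside the strongest site it was 7.14% (6.25 to 8.11) over all libraries, where spleen weighs most. By library it was then 5.94% in spleen, 6.06% in ovary, 9.38% in lung, 12.0% in brain, 19.1% in liver (9 of 47) and 22.2% in kidney (6 of 27).

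Few tags of ends with no A run read through the run. Leaving out the tags of all A-run ends, bases 15 to 20 were all covered by tags on the same strand for 87 A-run ends (4.96%), against 54.2% of other ends. In 78 of these 87 (89.7%, 81.3 to 95.2) the overlapping tags had the same 6 A, against 98.6% for the 6 letters of other ends. Tags that close on A in the same run are left out here by the rule itself. Both values for A-run ends can therefore be too low, while other ends lose few tags this way. The 2 sets are thus not compared on equal terms. Where at least 2 such ends covered the run, 25 of 26 had the same letters. With the tags of neighbouring A-run ends also counted, 266 A-run ends (15.2%) were covered, against 54.3% of other ends, and 261 had the same letters, although those neighbours were themselves chosen for A at their close. Coverage fell along the tag, from 336 ends at base 1 and 360 at base 9 to 324 at base 15 and 88 at base 20. The lowest share of ends with the same letter at a base was 98.0%, at base 19 (145 of 148). On the opposite strand 0 A-run ends had bases 15 to 20 covered.

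The ends around A-run ends lay mainly upstream. Counting every listed end on the same strand, 24.1% of A-run ends had another end 1 to 20 nt upstream and 14.6% had another 1 to 20 nt downstream. Beyond the first 20 bases, 12.9% (11.4 to 14.6) had an end 21 to 200 nt upstream and 3.14% (2.37 to 4.06) had an end 21 to 200 nt downstream. For other ends these longer-range shares were 72.3% and 66.5%. An end a few bases downstream on the same run would close on a longer run, and runs above 9 are not in these files, so the near downstream counts are limited by that ceiling. How far a run goes on past the bases read was not measured.

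In spleen and lung the upstream share was above the downstream share and the intervals did not overlap, while in the other 4 libraries they overlapped. Both shares are taken over the same ends, so an overlap of intervals does not show whether they differ. The A-run ends with an end upstream and downstream numbered 13 and 3 in brain, 11 and 3 in liver and 10 and 4 in ovary. In spleen 10.7% of A-run ends had an end 21 to 200 nt upstream and 1.62% downstream, against 80.7% and 38.9% of its other ends, which are thus themselves skewed upstream. In lung the A-run shares were 20.1% (16.5 to 24.2) and 5.72% (3.74 to 8.33), against 75.8% and 68.8%. In brain they were 15.1% (8.30 to 24.5) and 3.49% (0.725 to 9.86). Kidney had 1 of 28 upstream and 2 of 28 downstream, too few to order.

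**Figure D5:**
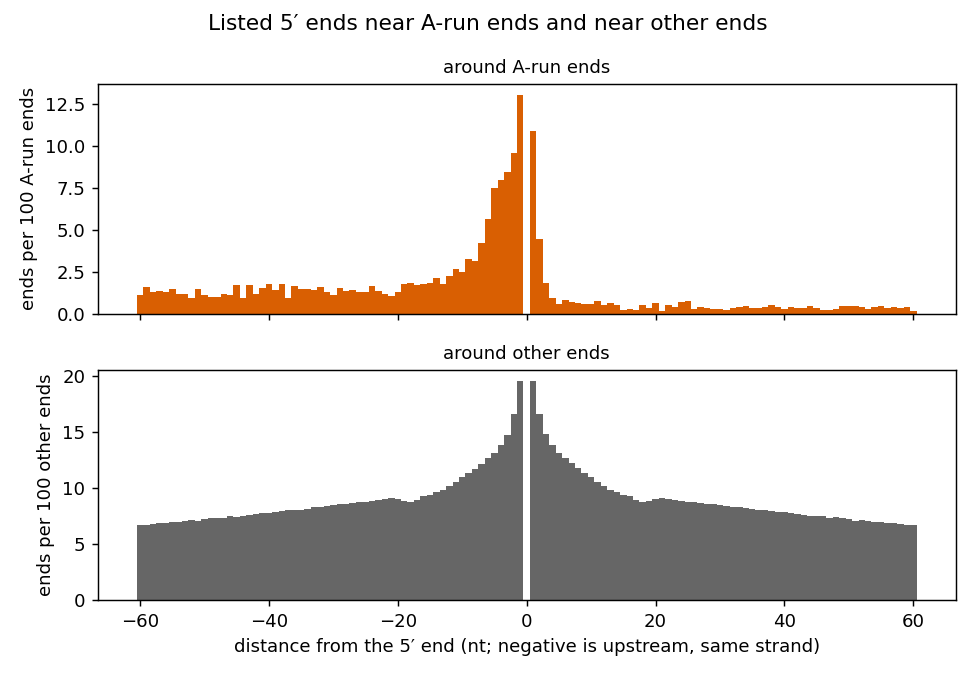
Number of listed ends at each distance from A-run ends (top) and from other ends (bottom), per 100 such ends, within 60 nt on the same strand; negative distances are upstream and the end itself is left out. The A-run profile is higher upstream than downstream, and the profile of other ends is nearly even; the vertical axes differ.

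A-run ends lay apart from the rest of the data. Another end with no A run lay 3 to 1000 nt away on the same strand for 436 of them (24.9%, 22.9 to 27.0), against 90.8% of other ends. By library the share was 21.7% in spleen, 28.6% in kidney, 32.6% in brain, 39.1% in lung, 44.2% in liver and 47.1% in ovary, and from 87.2% to 94.9% for other ends. It fell with the length of the run, from 42.5% at runs of 6 through 29.0% and 19.8% to 10.9% at runs of 9. At runs of 5, just outside the rule, it was 55.7%. Counted by window instead of by distance, 1219 (77.9%) of 1564 windows of 2 kb with an A-run end held no other end. The matching share was not counted for windows of other ends.

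The bases before the run were also searched in other tags. A match was counted when the same bases, in a tag over 2 kb away or on another chromosome, were followed by letters that were not all A. With a run of 6 the 14 bases before it were found elsewhere for 98 of 421 A-run ends (23.3%, 19.3 to 27.6), against 3.89% of other ends. With 13 bases the shares were 33.4% and 11.2%, with 12 bases 51.5% and 30.8%, and with 11 bases 79.4% and 65.8%. Within spleen, whose ends are A-rich, the difference was smaller: 25.5% against 13.2% with 14 bases, 37.1% against 27.7% with 13, 54.1% against 51.9% with 12 and 78.8% against 79.7% with 11. With 11 and 12 bases the spleen shares of A-run ends and other ends were therefore alike within the A-run interval. Outside spleen the difference with 14 bases was as large as in the pool. It was 24.9% (18.6 to 32.0) against 3.58% without spleen, and 28.8% (20.8 to 37.9) against 3.92% in lung.

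Some of these matching places were among the better-read ends of the same library, but most were not. Of 94 A-run ends with at least 5 A-run tags, 60 had such a place. The matching place had over 10 tags for 14 of the 60. For 26 of the 60 the end and its matching place were highest in the same library. Matching places with 1 tag were included, so their highest library can rest on 1 read. These counts mix 11 to 14 bases before the run and were not made for other ends. Whether they exceed what other ends would give is therefore not known. The pairs printed here were chosen after their values were seen, and capitals mark the letters after the shared part.
chr1:95597183 plus: aaagaatgtaaactAAAAAA
chr17:35333234 plus: aaagaatgtaaactATGC
chrX:132676889 plus: aactaagaatgAAAAAAAAA
chr17:35390615 plus: aactaagaatgAAACAAC
chr19:3206246 plus: ataacttaaactcAAAAAAA
chr5:115795676 minus: ataacttaaactcAGATGGT
chr16:23050990 plus: ttgaacaaagacAAAAAAAA
chr15:54434263 plus: ttgaacaaagacGAAGGTGTT
In the first pair the A-run end had 53 tags, all in spleen, and the other place 39 tags, 36 of them in spleen. In the second the A-run end had 8 spleen tags and the other place 81 tags, of which 65 were from spleen and 15 from lung. The third had 10 of 13 A-run tags in spleen and 11 of 16 at the other place. The fourth pair differed: the A-run end had 15 of 17 tags in spleen and the other place 22 of 23 in lung.

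Within spleen and within lung the signal hexamers were less frequent inside the tag of A-run ends than of other ends, beyond counting error. AATAAA and ATTAAA were read within bases 1 to 14, on the tag strand only since the tag's direction is known. Runs of 7 to 9 A start within these 14 bases, which limits where a hexamer can lie. A hexamer at base 14 can take its closing A from a run of 9. The window is therefore not the same as in other ends. In spleen 7.40% of A-run ends held one (6.04 to 8.96), against 29.9% of its other ends, and in lung 1.60% (0.646 to 3.27) against 5.15%. Without spleen the shares were 2.08% (1.08 to 3.60) and 4.22%. Pooled over all libraries they were 103 A-run ends (5.88%, 4.82 to 7.08) against 5.09%, in a pool where spleen gives 74.0% of the A-run ends, and counted by tags 1.50% against 8.16%. A tag leaves little room before the run, so overlapping tags were used to add 10 bases upstream where they could be read, for 96 A-run ends. A hexamer then lay in 34 of the 96 (35.4%, 25.9 to 45.8), against 10.3% of other ends with the same 24 bases read. In spleen it was 28 of 55 (50.9%, 37.1 to 64.6) against 42.9%, a difference within counting error, and in lung 11 of 42 (26.2%, 13.9 to 42.0) against 10.4%. No match says only that these letters are not in the bases read.

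Bases 1 to 11 of A-run ends were richer in A than those of other ends, 40.0% against 27.5%, with C at 12.7% against 22.2%. Within libraries the difference was 42.9% against 41.5% A in spleen, 32.8% against 27.3% in lung and 24.0% against 26.0% in kidney. Spleen supplied 74.0% of the A-run ends in the pooled value. In kidney G made up 35.1% of bases 1 to 11 of A-run ends, against 22.7%.

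The A-run ends were spread over 21 chromosomes and both strands, with 850 (48.5%) on the plus strand. The chromosome X share was 5.76% of A-run ends (101) against 2.67% of other ends, and that of chromosome 13 was 5.36% against 3.42%. Chromosome 11 was lower, 5.59% against 8.29%. Chromosome Y held 3 A-run ends and 4 others. By run start the 1753 ends fell on 1568 places, of which 1425 had 1 end, 112 had 2, 20 had 3 and 11 had 4.

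No 2 kb window held more than 4 A-run ends. Of the 1564 windows, 1419 held 1, 112 held 2, 22 held 3 and 11 held 4. The window chr4:33052001-33054000 on the plus strand had 4 A-run ends with 9 tags (3 lung and 6 spleen) among 62 other ends. The window chr1:193896001-193898000 on the minus strand had 4 with 10 tags (1 brain, 2 lung, 1 kidney and 6 spleen) beside 6 other ends. The windows chr2:57480001-57482000 minus (6 tags), chr2:165490001-165492000 minus (8 tags) and chr6:87044001-87046000 plus (4 tags) were made of lung and spleen tags alone, with 5, 4 and 1 other ends. Genes under these windows were not named, because the annotation given is of another build.

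The 20 bases of 3 A-run ends were found in a RefSeq promoter window (GRCm38.p6, 250 bases before to 50 after a gene's start, 32851 windows), with 1 tag each. The match ran along the gene's strand for Gm32985 and against it for Hsd17b12, a long-chain fatty acid elongation enzyme of the endoplasmic reticulum, and for Frmpd4, a scaffold protein of synapses. These are matches of letters, and the Frmpd4 match was to a tag listed on chromosome 12.

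Another sequence of at least 20 bases without the closing run was listed at 11 of the 1753 A-run ends, with 82 tags. By the rule each end has at least 1 A-run tag, and 78.4% of the ends had 1 tag, so most could not show another sequence.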

How the data were processed

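The deposited files give, per the file headers, each tag's place, its letters with the number of reads, and a display score that the authors set for browser density and that was used only as a check. Per the submitters' processing notes tags were placed with Bowtie on mm9; its version and mismatch setting were not given in the sources used here. Counts per sequence, read from the deposited name column, were summed by 5′ end. Unique tags per library (29213 to 493121) set CPM, so 3 tags, the limit that a count of 0 allows, correspond to 6.08 CPM in lung and 103 in ovary. Shares have Clopper-Pearson intervals, and ratios exact conditional binomial intervals (Python 3.11.15, SciPy 1.17.1, NumPy 2.4.6). The counting steps were tested on simulated tags. As 1 check, 99.9% of scores matched the read numbers.

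The members and lists were chosen with earlier results of these data known. The named ends are the 12 with most tags, the 2 highest per library, the 4 longest runs with at least 3 tags, those in 5 or 6 libraries, and the 5 windows with most A-run ends. Sequence from chromosome 18 is not printed. The neighbour, tag length, isolation, upstream hexamer and matching-place measures were chosen after seeing the data.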

Additional observations from a re-analysis of the deposited data

Results flagged for a closer look

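Sequences listed at 2 locations, left out of the report, also held A runs at bases 15 to 20, above the limit that a count of 0 allows, in 4 libraries. The share was 9.70% of such tags in spleen (433 of 4464), 0.557% in brain (10 of 1795), 0.326% in ovary (6 of 1841) and 0.267% in lung (73 of 27305).

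Tags of 17 to 19 bases, too short for the rule, closed on 6 A in 37.7% of cases in spleen (89 of 236), 6.74% in brain (13 of 193), 4.83% in liver (10 of 207) and 1.71% in lung (30 of 1754). Kidney had 1 of 456, and ovary 0 of 97, which allows a share of up to 3.09% (3 tags).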

How the results depend on the processing

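No paired analysis was possible because each tissue has 1 library, and no replicate could be left out for the same reason. The values below lay outside the counting interval of the value in the report, or moved by over 1.5 times. Liver and ovary changed places by tags with at least 8 A and without the end with most tags. Pooled, hexamers were in 5.88% of A-run ends (4.82 to 7.08) and 5.09% of other ends, a difference within counting error. They were less frequent in A-run ends without spleen and by tags. In the order brain, lung, liver, kidney, ovary and spleen, the A-run share of tags was 0.638%, 0.145%, 0.0481%, 0.0253%, 0.0719% and 3.15% with at least 8 A required. It was 0.900%, 0.207%, 0.0993%, 0.0339%, 0.144% and 5.37% without the end with most tags, and 5.76%, 1.30%, 0.989%, 0.224%, 0.502% and 7.65% among tags of exactly 20 bases. With at least 5 A it was 0.894% in lung, 0.721% in liver and 6.68% in spleen, and with 2-location sequences kept 0.797% in lung and 6.02% in spleen. The share of distinct ends with at least 8 A was 0.0786%, 0.0764%, 0.0131%, 0.0129%, 0.0506% and 2.88% in the same library order. With at least 5 A the share of ends was 6.14% in spleen, 0.450% in brain, 0.253% in lung, 0.219% in ovary and 0.171% in liver, and with 2-location sequences kept 0.180% in lung and 5.48% in spleen. The spleen share of tags over that of brain was 15.8 without ends of 20 tags or more, and 16.5 by distinct ends.

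The ratio of the closing position to the median of the others was 8.04 by tags, 11.6 for runs of 8 A and 1.80 without spleen. A over the next most frequent closing base was 10.4 by ends, 40.7 by tags and 3.46 without spleen. The highest end held 1743 tags without lung, and 2.43% of A-run ends were then in 2 or more libraries. The same 6 letters were read in 96.2% where at least 2 other ends covered the run (25 of 26, 80.4 to 99.9, an interval that holds the 89.7% of the report) and in 98.1% with tags of other A-run ends also compared; the opposite strand gave no value, since it covered none. Another end lay within 200 nt for 21.8%, and within 1000 nt for 38.0% without spleen. Without spleen 20.1% had an end 21 to 200 nt upstream and 6.41% downstream. Tags of 21 bases were 7.14% without the strongest site. Hexamers were in 4.39% with AATAAA only, 1.50% by tags and 2.08% without spleen. Bases before the run were read elsewhere for 33.4% with 13 bases. The alternatives that leave out spleen or the strongest site, add tags of A-run ends, use 200 nt or use 13 bases were chosen after seeing the data. The causes of these moves were not tested. Depth limits the smaller libraries: ovary, liver and kidney rest on 34, 43 and 28 A-run ends.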
